A study of Mus musculus with 5 samples.

Results

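The resistin-like genes Retnlb, Retnla and Retnlg lie side by side on mouse chromosome 16, and their contacts with a 4C bait in the neighbouring Dppa2/4 domain are described here for the 129 and the CAST chromosome of 2 hybrid embryonic stem cell clones. The cluster was taken as every 5 kb window from 5 kb before Retnlb to 5 kb after Retnlg, which gave 14 of the 545079 windows of the deposited table and 14 of the 19632 windows of chromosome 16. All 3 genes are members, and no filter on low values was applied. They were chosen by their deposited values, which were known to be higher on 129 than on CAST in both clones, so the allele values below are a description and carry no test.

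4C-seq fixes chromatin, cuts and ligates it, and reads which fragments were joined to 1 chosen viewpoint, the bait. The series has 5 such libraries of mouse embryonic stem cells. Those used here are the clones A6 and E2 of a Cas/129 hybrid line, grown in medium with 2i and LIF, with 1 library each. In both clones CRISPR was used to delete 3 intervals near the bait, so each clone's 129 reads are compared with its own CAST reads, and no hybrid library without these deletions was analysed here. The 129 columns are headed svim in the file. The labels do not name the edited allele. Reads were nearly missing on 129 in intervals 2 and 3, which were 40496 and 39009 bp long. A6 had 26 reads on 129 and 12236 on CAST in interval 2, and 1 and 6766 in interval 3. E2 had 67 and 18179, then 6 and 12501. On 129 these deletions lie between the bait and the cluster and shorten the distance by 79.5 kb. No expression was measured, so the cell type is that of the labels.

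Resistin-like molecules are small, cysteine-rich, secreted proteins related to resistin, the hormone of fat tissue encoded by Retn. Retnla (RELM-alpha, also FIZZ1) is a marker of macrophages activated by IL-4 or IL-13 through the transcription factor STAT6. Retnlb (RELM-beta) is a goblet cell protein of the gut that responds to worm infection, and Retnlg (RELM-gamma) is known from bone marrow and neutrophils. These genes are known for immune and mucosal tissue and not as genes of pluripotent cells. The values below count fragments joined to the bait and do not show whether the genes are used.

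The primers that define the viewpoint are shown first, because every value is a count of fragments joined to it. Capitals mark the bases that open the HindIII site AAGCTT, the site at which chromatin was cut.
bait forward: tttgggattttggagtgAAGC
bait reverse: ctgctggacttgtcaactgaa
The last 4 bases of the forward primer are the first bases of that site. The position of the primers in the genome was not determined here. The table has no windows for 50 kb around the bait, from 48320001 to 48370000 of chromosome 16 (mm10), and distances are counted from the middle of this gap.

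The genes follow each other on the far side of Morc1 and Trat1 as seen from the bait. Retnlb lies at chromosome 16, 48816856 to 48818892 (mm10), 472 kb from the bait, Retnla at 48842609 to 48844461, 498 kb away, and Retnlg at 48872608 to 48874498, 528 kb away. Without the deleted intervals 2 and 3 these distances would be 392, 418 and 448 kb. The gaps between the genes are 23.7 and 28.1 kb. Trat1, an adaptor of the T cell receptor, ends before Retnlb, and Dzip3, a ubiquitin ligase gene, begins after Retnlg.

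The promoters of 2 of the 3 members, Retnla and Retnlg, are in the RefSeq table (GRCm38.p6, the build of mm10), and that of Retnlb is not. The 250 bases before each start are shown because they are the regulatory sequence that lies in the windows described below. Both are on the plus strand, Retnla at chr16:48842359-48842608 and Retnlg at chr16:48872358-48872607. Capitals mark matches to the STAT6 motif (TTC and GAA with any 4 bases between them) and to the TATA box TATAAA.
Retnla: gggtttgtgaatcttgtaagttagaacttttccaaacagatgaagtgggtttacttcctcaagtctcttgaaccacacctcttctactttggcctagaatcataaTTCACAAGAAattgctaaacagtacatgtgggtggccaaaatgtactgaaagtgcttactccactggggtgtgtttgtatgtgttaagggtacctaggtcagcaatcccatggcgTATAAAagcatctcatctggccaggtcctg
Retnlg: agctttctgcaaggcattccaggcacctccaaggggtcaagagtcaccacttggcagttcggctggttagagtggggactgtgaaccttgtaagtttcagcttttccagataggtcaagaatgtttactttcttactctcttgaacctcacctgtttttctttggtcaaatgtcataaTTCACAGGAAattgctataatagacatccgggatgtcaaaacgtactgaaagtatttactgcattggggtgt
The sequences align over 175 bases, of which 138 (78.9%) are identical. Among 32850 other promoters of the table, Retnlg had the highest alignment score with Retnla, 92 (1 for a match, with free ends), against 12 for the next. The longest shared run, 12 bases, is tcataattcaca, which runs into the STAT6 motif of both genes. That motif reads TTCACAAGAA in Retnla, 145 to 136 bases before the start, and TTCACAGGAA in Retnlg, 72 to 63 bases before it. It is its own reverse complement, was therefore found once for both strands, and occurs in 5.85% of the 32851 promoters. TATAAA, searched on both strands and present in 12.4% of promoters, occurs in Retnla, 30 to 25 bases before the start. The HindIII site AAGCTT (6.22% of promoters) and the DpnII site GATC (41.9%), the cutting sites of the 4C protocol, occur in neither stretch.

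The deposited values are RPM, reads scaled to the same total in every column,, averaged by the authors over 30 windows, or 150 kb. On that scale Retnlb, taken with 5 kb on both sides, had 545 RPM on 129 against 433 on CAST in A6, and 574 against 488 in E2. Retnla had 518 and 310 in A6, and 504 and 364 in E2. Retnlg had 399 and 230 in A6, and 369 and 249 in E2. The 129 values lay above the CAST values of both clones at each of these genes, and the groups did not overlap. The genes were chosen with higher 129 values known, and their values share reads through the running mean. How often other windows separate the alleles in this way was not tested. A looser measure, 129 above CAST within each clone, held in 72% of windows within 2 Mb of the bait and 36.6% on chromosome 16.

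Both alleles had their highest value at Retnlb and their lowest at Retnlg, the gene farthest from the bait. On 129 the means were 560 ± 20.6 RPM (SD, n = 2) at Retnlb, 511 ± 10.2 at Retnla and 384 ± 21.2 at Retnlg. On CAST they were 460 ± 39.4, 337 ± 37.8 and 240 ± 13.7. Every step of this order was larger than either SD beside it. The SD is the spread between clones and does not measure the error of a step. Neighbouring genes also share reads through the running mean. With the running mean undone, as described below, the order held on CAST in both clones and on 129 in A6. On 129 in E2 it did not, at 584 RPM at Retnlb, 795 at Retnla and 323 at Retnlg. In the deposited values the log2 ratio of 129 to CAST was 0.28 ± 0.07 at Retnlb (0.33 in A6 and 0.23 in E2), 0.60 ± 0.19 at Retnla (0.74 and 0.47) and 0.68 ± 0.16 at Retnlg (0.80 and 0.57). In both clones the ratio was lowest at Retnlb and highest at Retnlg, and the step from Retnla to Retnlg was smaller than the SD between the clones. Over the whole cluster it was 0.49 ± 0.13, a ratio of 1.41.

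**Figure D1:**
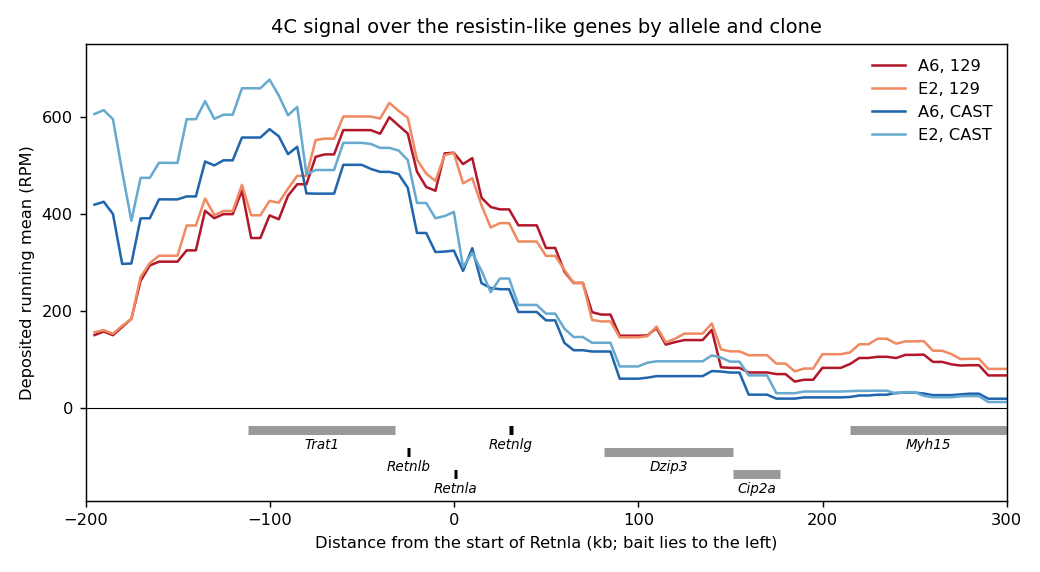
Deposited running mean of the 4C signal (RPM, y axis) against the distance from the start of Retnla (kb, x axis), 1 line for each allele of each clone, with gene positions as bars below. Over the 3 resistin-like genes (black bars) both 129 lines lie above both CAST lines. All 4 lines are lower at Dzip3 than at Retnlb, with a rise near Retnla on the way.

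The whole cluster had 475 RPM on 129 against 317 on CAST in A6, and 468 against 354 in E2. All 14 windows had the higher deposited value on 129 in both clones. Over all windows of chromosome 16 this was the case in 36.6%, and within 2 Mb of the bait in 72%. The cluster lies near the start of a run of 214 such windows, from 48765001 to 49835000, which begins 51.9 kb before Retnlb and ends 961 kb after Retnlg. A count of 14 of 14 inside that run, with values that share reads through the running mean, is therefore 1 observation and not 14.

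The rank of the cluster among windows near the bait was not matched for distance. Nearer the bait, the stretch over Trat1 had higher deposited values than the cluster on both alleles of both clones. Among all windows within 2 Mb the cluster ranked high. Its mean exceeded 94.2% of the 776 other windows within 2 Mb of the bait on 129 in A6 and 91.0% in E2, and 87.9% and 85.3% on CAST. The stretch at the same distance on the other side of the bait, widened by 25 kb (47785001 to 47905000), had 138 RPM on 129 against 113 on CAST in A6, and 135 against 101 in E2. The cluster was thus 3.45 and 3.46 times as high as its mirror on 129, and 2.80 and 3.52 times on CAST. The log2 of this ratio was 1.79 ± 0.0036 (SD, n = 2) on 129 and 1.65 ± 0.23 on CAST, so the alleles did not differ beyond the spread of the clones. With the deleted intervals left out of the distance on 129, its value there was 1.65 ± 0.13.

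A running mean shows a neighbourhood, so it was undone to see the reads of each window. Undoing it gave whole reads in all 4 columns. Reads were found in 7 of the 14 windows, and the same windows held the reads in both clones. The windows just outside the cluster on either side, at 48805001 to 48810000 and at 48880001 to 48885000, held 0 reads in all 4 columns. The cluster held 15735 reads on 129 against 5573 on CAST in A6, and 17628 against 6474 in E2. These are 3.37% (95% Wilson interval 3.32 to 3.42%) and 1.79% (1.74 to 1.84%) of the chromosome 16 reads in A6. In E2 they are 2.98% (2.94 to 3.02%) and 1.67% (1.63 to 1.71%). The 14 windows are 0.0713% of the chromosome. All intervals here reflect counting alone, because several reads can be copies of 1 ligated molecule.

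The genes themselves held few reads. The window with Retnlb (48815001 to 48820000) had 0 reads in all 4 columns, and so had the window with Retnlg and its promoter (48870001 to 48875000). At the depth of these libraries 0 reads allow up to 3, or 1.53 and 2.27 RPM on 129 and CAST in A6 and 1.24 and 1.86 RPM in E2. The window with Retnla and its promoter (48840001 to 48845000) had 295 reads on 129 in A6 and 221 in E2, and 0 on CAST in both. Set against that limit of 3 reads, the scaled reads on 129 were at least 66.3-fold higher in A6 and at least 49.0-fold higher in E2. These limits reflect counting of reads alone and set no limit on contacts, because several reads can be copies of 1 ligated molecule. The 129 reads of this window were 1.87% and 1.25% of the 129 reads of the cluster. These places rest on reading each position as the start of its window. Read as ends, the own reads around Retnla would give a log2 ratio of -0.15, the opposite direction, and the read window beside Retnlg would lie over that gene. The deleted intervals bear on this directly: read as ends, the windows that lose their 129 reads at the start of intervals 2 and 3 would hold 0 bases of them. Whether an empty window lacks a contact, a cutting site or a base that tells the alleles apart cannot be told apart here.

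Around Retnlb the reads came from the windows before and after the gene. The window before it (48810001 to 48815000), which also takes in the last bases of Trat1, had 2739 reads on 129 against 683 on CAST in A6, and 2150 against 865 in E2. The window after it (48820001 to 48825000) had 2854 and 1841 in A6, and 2095 and 1498 in E2. In RPM the first was higher on 129, by a log2 of 1.43 in A6 and 0.73 in E2. The second was even, at 0.06 and -0.10. Read together, the windows of Retnlb held 68.9% 129 reads in A6 (67.9 to 69.9%) and 64.2% in E2 (63.1 to 65.4%). For comparison, 129 had 59.7% of all allele-assigned reads of A6 and 60.0% of those of E2, so that a share near 60% means equal RPM.

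Between Retnlb and Retnla 2 more windows carried reads. At 48825001 to 48830000 there were 1388 reads on 129 against 595 on CAST in A6, and 1927 against 828 in E2, a log2 of 0.65 and 0.63 in RPM. At 48835001 to 48840000, within 5 kb of Retnla, 129 had 3525 reads in A6 and 5559 in E2, the most of any window of the cluster in that column. CAST had 104 reads there in A6 and 575 in E2. In RPM this was 1798 on 129 against 78.7 on CAST in A6, and 2294 against 356 in E2. The 129 value was similar in the clones, at a ratio of E2 to A6 of 1.28, while the CAST value was 4.53 times as high in E2. The 129 share was 97.1% in A6 (96.5 to 97.6%) and 90.6% in E2 (89.9 to 91.3%).

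Just downstream of Retnla the scaled values went the other way. The window at 48850001 to 48855000 had 2941 reads on 129 against 2349 on CAST in A6, and 3330 against 2705 in E2. This is the window with most CAST reads, 42.1% and 41.8% of the CAST reads of the cluster. In RPM it was 1500 on 129 against 1778 on CAST in A6, and 1374 against 1677 in E2, so it was higher on CAST in both clones (log2 -0.27 ± 0.03, SD, n = 2). It is the only read window of the cluster with that direction in both.

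The reads counted for Retnlg came from 1 window (48875001 to 48880000), which begins 503 bp beyond the end of the gene. It had 1993 reads on 129 against 1 on CAST in A6, and 2346 against 3 in E2. The 129 share was 99.9% in both clones (99.95% in A6, with counting limits of 99.72 and 99.99%, and 99.87% in E2, with limits of 99.63 and 99.96%). On 129 the value was 1017 RPM in A6 and 968 in E2, close to the windows around Retnlb. The CAST signal of 230 and 249 RPM in the deposited values of Retnlg thus came almost wholly from reads elsewhere within the running mean.

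**Figure D2:**
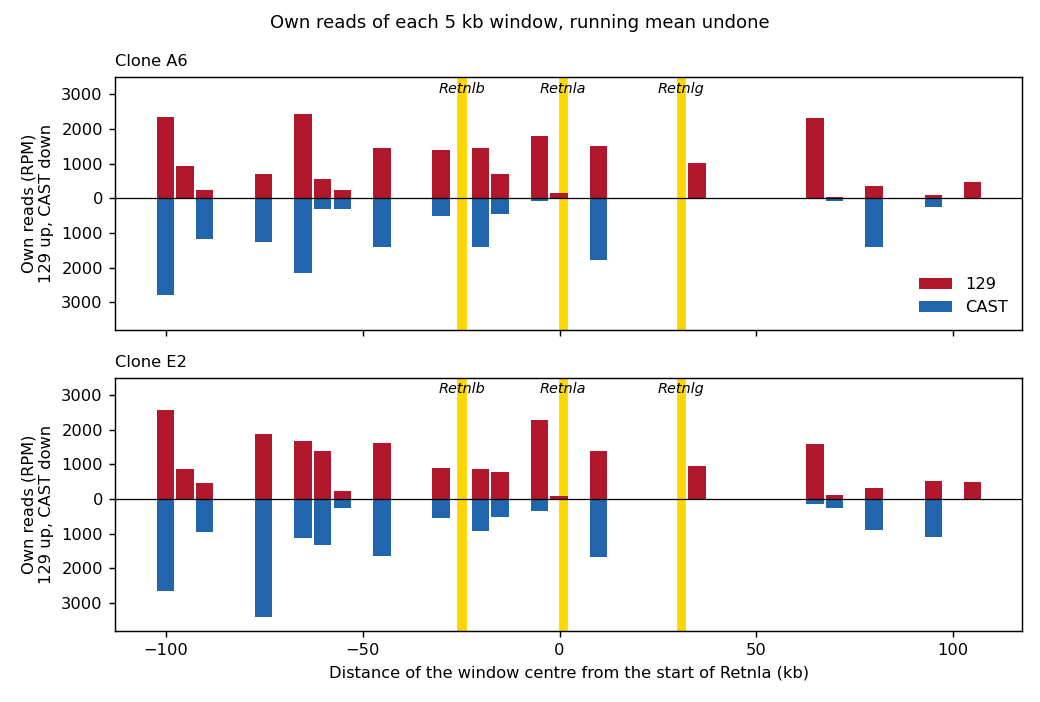
Own reads of each 5 kb window in RPM (y axis, 129 upward and CAST downward) against the distance of the window from the start of Retnla (kb, x axis), for clone A6 above and clone E2 below, with the 3 genes in yellow. Bars of both alleles stand around Retnlb and just after Retnla, while the bars just before Retnla and just after Retnlg are almost wholly 129.

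In raw reads 129 had more than CAST in all 7 read windows in both clones. On chromosome 16, 54.6% of the 2541 windows with at least 20 reads in each clone did so, and 67.1% of the 252 within 2 Mb of the bait. In RPM, 5 of the 7 were higher on 129 in both clones, 1 was higher on CAST in both, and the window after Retnlb split the clones. The share of windows higher on 129 in RPM was 50.1% on chromosome 16 and 54% within 2 Mb. At least 95% of the reads were on 129 in both clones in 2 of the 7, at Retnla and beside Retnlg. Windows of this kind made up 38.2% of those on chromosome 16 and 25.8% of those within 2 Mb. A further 20.3% on chromosome 16 were at least 95% CAST, and 0 of the 7 were. Windows read on nearly 1 allele were thus common along the chromosome, and 2 of 7 is near their share within 2 Mb.

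**Figure D3:**
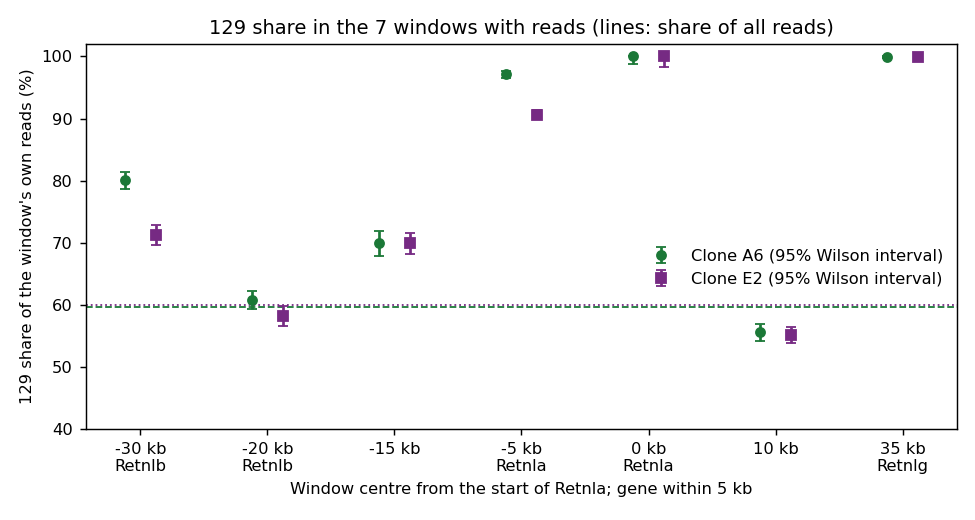
The 129 share of the reads (%, y axis, from 40) in each of the 7 windows of the cluster that held reads (x axis, by distance from the start of Retnla), with 95% Wilson intervals for counting error and lines at the 129 share of all reads of each clone (59.7% in A6 and 60.0% in E2). The shares run from 55.6% in A6 and 55.2% in E2 just after Retnla to 100% in the window of Retnla.

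The reads behind the deposited value of each gene were then placed along the chromosome. For Retnlb, reads upstream of the cluster, over Trat1, gave 50.9% of the 129 value in A6 and 57.8% in E2, and 67.5% and 72.6% of the CAST value. They lowered the difference between the alleles, by -14.4 RPM in A6 and -22.9 RPM in E2. The other windows of the cluster raised it by 95.5 and 99.2 RPM, of which the window just before Retnla gave 57.3 and 64.6 RPM. The windows of Retnlb itself gave 31.4 and 9.57 RPM.

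For Retnla the difference of 208 RPM in A6 and 140 RPM in E2 had 4 sources. Its own windows gave 62.3 and 67.6 RPM, the rest of the cluster 64.6 and 41.1, and the side of Dzip3 75.5 and 46.0. Reads upstream of the cluster added 5.35 RPM in A6 and took away in E2, at -14.8 RPM. A single window on that side, at 48905001 to 48910000 between Retnlg and Dzip3, held 4529 reads on 129 against 35 on CAST in A6, and 3876 against 211 in E2. It gave 76.1 and 49.0 RPM.

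For Retnlg, whose difference was 169 and 120 RPM, its own window gave 33.9 and 32.2 RPM, all but a trace of it from 129. The rest of the cluster gave 93.1 and 76.5 RPM, the side of Dzip3 41.1 and 11.1, and the upstream side 0.897 and -0.301. At each gene, then, more of the deposited difference came from outside the gene and its 5 kb than from inside. The running mean of the cluster begins at 48735001, 115 kb beyond interval 3, so the deleted windows enter none of these values.

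**Figure D4:**
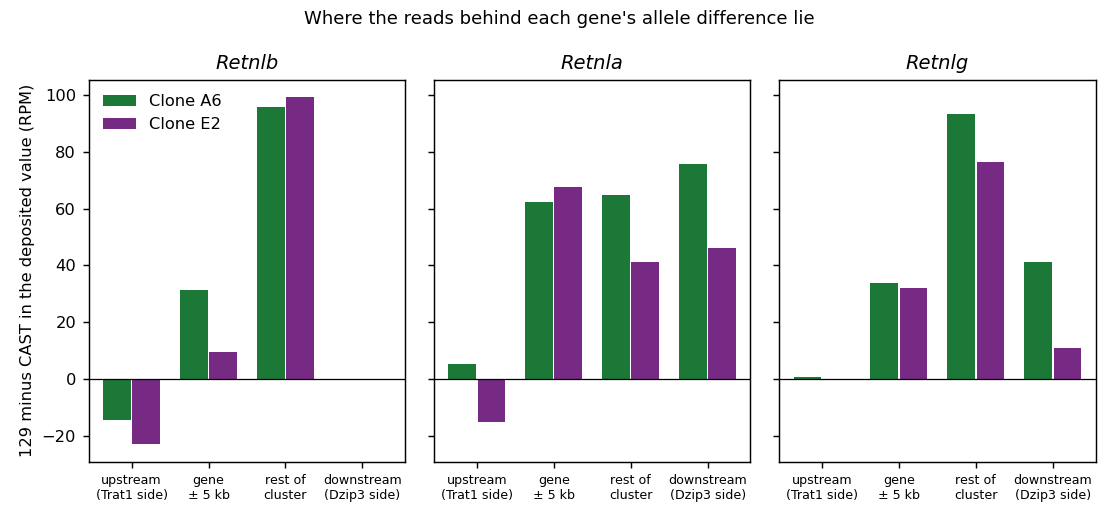
Difference between 129 and CAST in the deposited value of each gene (RPM, y axis), split by where the reads lie (x axis), for clones A6 and E2. The upstream bars are near or below 0, and the tallest bars of Retnlb and Retnlg are those of the rest of the cluster, at 95.5 and 93.1 RPM in A6.

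In the deposited values, the neighbours place the cluster at a change along the chromosome. In the 14 windows upstream of it, over Trat1, the deposited values were 512 RPM on 129 against 495 on CAST in A6, and 539 against 554 in E2, a log2 ratio of 0.00 ± 0.06 (SD, n = 2). Own reads there gave -0.08 ± 0.01. In the 14 windows downstream the values were 243 and 124 RPM in A6, and 232 and 145 in E2, a log2 ratio of 0.82 ± 0.21. Own reads there gave 0.63 ± 0.40, and 0.92 and 0.35 in the clones. The cluster, at 0.49 ± 0.13 deposited and 0.89 ± 0.05 in own reads, thus lay between an even and a 129-higher stretch in the deposited values. The running mean of 150 kb is longer than each of these stretches, so the deposited value of the cluster mixes in reads of both neighbours. A place between them is therefore no separate result. In own reads the cluster was as high as the downstream stretch within the SD of the latter. Both own-read ratios rest on few windows. In the cluster, 3 windows at least 90% on 129 gave 75.8% of the own RPM difference in A6 and 91.8% in E2. Without them its log2 was 0.29 in A6 and 0.10 in E2. Downstream, the windows starting at 48905001 and 48945001 were nearly or wholly 129. Those starting at 48910001, 48920001 and 48935001 were higher on CAST in RPM in both clones.

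Of the 7 other protein-coding genes described here, from Dppa4 to Myh15, the nearest were Trat1 and Dzip3. Trat1 was at a deposited log2 ratio of -0.06 ± 0.07 (SD, n = 2) and Dzip3 at 0.74 ± 0.26. Dzip3 was opposite in its own reads, with 1829 on 129 against 2174 on CAST in A6, and 3174 against 3210 in E2, a log2 of -0.82 and -0.60 in RPM. The resistin-like genes had the same direction in own reads as in deposited values in both clones, with positions read as window starts, and so had Cip2a, Myh15 and Morc1. Beyond Dzip3, Cip2a was at a deposited 0.72 ± 0.14 and at 1.18 ± 0.27 in own reads, and Myh15 at 1.87 ± 0.36 and 1.78 ± 0.32. Towards the bait, Morc1 was at -0.80 ± 0.25 and -0.67 ± 0.26, both of which include its deleted windows. Dppa2, which interval 1 overlaps, was at a deposited -0.58 ± 0.19, a value made by reads elsewhere, since its own windows held 3 reads in A6 (1 of them 129) and 0 in E2. Dppa4 was at 0.05 ± 0.13. The level of Retnlg on CAST, 240 RPM, was 2.67 times that of Dzip3 at 89.6 RPM. On 129 it was 2.60 times as high, at 384 against 148 RPM.

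Among 416 genes of chromosome 16 over 150 kb from the cluster and over 50 kb from the bait, with at least 10 reads in each clone, the one most like the members was Dppa4. Likeness was the Euclidean distance of the 4 values as log2(RPM + 1) from the mean of the 3 members, over 2 clones and 2 alleles. It was 0.62 for Dppa4, against 0.14 for Retnla, 0.73 for Retnlb and 0.81 for Retnlg, which made up that mean. Dppa4 had 447 RPM on 129 against 404 on CAST in A6, and 484 against 497 in E2. Its own reads were higher on CAST, with 1879 on 129 against 3307 on CAST in A6, and 2911 against 4095 in E2, so the likeness holds for the running means alone. The next were Morc1 at 2.24 and Nectin3 at 5.12, both farther from the mean than any member.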

How the data were processed

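4C-seq libraries of 2 hybrid clones were used. Per the file headers and the submitters' processing notes, the authors aligned reads with Bowtie2 (mm10 here), split them by SNPs into 129 and CAST, and deposited RPM per 5 kb window as a running mean over 30 windows, with the bait windows left out. SNP and alignment settings: not given in the sources used here. Totals per allele were 1960438 and 1321005 reads in A6 and 2423179 and 1613268 in E2. With the running mean undone, 100% of differences between neighbouring windows were whole reads (within 0.01) and 0 windows were negative. The undoing was tested on simulated reads that began with empty windows, as the method assumes. This did not test how the 30 windows of the mean lie around the named position. Because the contrast chose the genes, no count test was run and no gene was called. The inbred table (another bait, mm9) was not used here.

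Windows were read as starting at the given position. The windows at the start of intervals 2 and 3 (48395001 to 48400000 and 48580001 to 48585000) had 1 and 0 reads on 129 in A6 against 4863 and 4247 on CAST. In E2 they had 37 and 1 on 129 against 4847 and 5462 on CAST. Read as ends they would hold 0 bases of the intervals.

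Ratios have no pseudocount. The SD is over 2 clones, each 1 library, and each clone's alleles share a library. Members, gene lists and motifs were chosen with earlier results of these data known. Genes named are the members, protein-coding genes within 500 kb, genes from Dppa4 to Myh15 listed by name, 3 genes most alike and an 8-gene list. Tools were biopython 1.88, matplotlib 3.10.9, scipy 1.17.1, pandas 2.3.3, numpy 2.4.6 and Python 3.11.15.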

Additional observations from a re-analysis of the deposited data

How the results depend on the processing

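With 1 clone left out at a time, the log2 ratio ranged from 0.23 to 0.33 for Retnlb, 0.47 to 0.74 for Retnla, 0.57 to 0.80 for Retnlg and 0.40 to 0.58 for the cluster. Flanks of 0 or 10 kb, the median, a pseudocount of 1 or 5 RPM and scaling to chromosome 16 moved these ratios by less than their SD. Scaling to chromosome 16 over 1 Mb from the bait gave 0.18 for Retnlb and moved the others by less than their SD. Without scaling of the alleles the ratios were 0.86, 1.18, 1.26 and 1.07, since 129 had more reads. With the running mean undone they were 0.42, 3.69, 9.71 and 0.89, and over windows read on both alleles 0.42, 3.60, 9.71 and 0.87. The value of 9.71 rests on 1 and 3 CAST reads: 10.4 (95% counting interval 7.89 to 12.9) in A6 and 9.02 (7.47 to 10.6) in E2. With positions read as window ends, an alternative chosen after seeing the data, own reads gave 0.22 for Retnlb, -0.15 for Retnla, the opposite direction, 9.71 for Retnlg and 0.86 for the cluster. The 129 share of own reads was then 57.4% at Retnla.

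In the main reading that share was 66.6% at Retnlb, 94.2% at Retnla, 99.9% at Retnlg and 73.5% over the cluster. Over single clones it ranged from 64.2 to 68.9%, 91.0 to 97.3%, 99.87 to 99.95% and 73.1 to 73.8%. Without flanks it was 100% at Retnla and 69.7% over the cluster, and with 10 kb flanks 73.5% at Retnla. Without the window with most reads it was 75.7% at Retnlb, 100% at Retnla and 79.5% over the cluster. Retnlb and Retnlg gave no share without flanks, nor Retnlg without its window, for want of reads. The log2 ratio of the cluster to its mirror was 1.65 on 129 with the deleted intervals left out of the distance, and over single clones it ranged from 1.79 to 1.79 on 129 and from 1.48 to 1.82 on CAST. Every ratio of the alleles was taken within a clone and is therefore already paired.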

Other observations

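Genes tied to the resistin-like family on other chromosomes ranged from 0 reads to deposited values well above the median window there. Retn, the gene of resistin itself (chromosome 8, 3655770 to 3659818), held 0 reads of its own on either allele of either clone, which allows up to 3 reads, and its deposited values were 0.125 RPM on 129 in A6, 0.449 in E2 and 0 on CAST in both. Of the 8 genes of the list (Retn, the proposed resistin receptors Cap1 and Tlr4, Il4ra and Stat6 of the IL-4 pathway, and the macrophage activation genes Arg1, Chil3 and Mrc1), 4 held 0 reads in all 4 columns and 1, Tlr4, held reads in all 4. Tlr4 had 422 reads on 129 against 11 on CAST in A6, and 81 against 62 in E2. Cap1 had 188 and 51 reads on 129 in A6 and E2, and Mrc1 260 and 131, with 0 on CAST for both genes in both clones. Stat6 had 2 and 14 reads, all on CAST. Deposited values were higher on 129 in both clones for 3 of the 8 genes and on CAST for 2, and 38.4% of windows on the other autosomes were higher on 129 in both. The highest deposited values on 129 in A6 were 11.6 RPM for Tlr4, 5.33 for Mrc1 and 4.33 for Cap1, where the median window of the other autosomes had 0.697 RPM. In E2 these 3 genes had 2.49, 1.63 and 3.03 RPM on 129 against a median of 0.619. The highest of the list there was Chil3 at 3.15 RPM, with 0 reads of its own. On CAST, Tlr4 had 10.4 RPM in A6 and 5.39 in E2, against medians of 0.429 and 0.372. The share of other genes with 0 reads or with reads in all 4 columns is not given here. Nor is the share of windows that reach such values. Retnlg, on the chromosome of the bait, had 399 RPM on 129 in A6.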
